A study of Mus musculus with 12 samples.

Results

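Macrophages grown from the bone marrow of Balb/c and C57BL6 mice were compared after 18 h in interleukin-4 (IL-4), the state often called alternative activation. The comparison rests on 4 of the 12 arrays of the study, 2 for each strain, taken by their labels alone. The Balb/c group was Balb/cAnNCrl and the C57BL6 group C57BL6/J, both from mice 8 to 12 weeks old, and each sample was labelled as 2 males and 1 female. Marrow of several animals was pooled and grown with human CSF1 at 200 ng/ml, the medium was changed on day 5, and cells were replated on day 6 and treated on day 7. Both groups were given IL-4 at 10 ng/ml for 18 h. The other 8 arrays held, for each strain, 2 untreated (mock) samples and 2 samples after 4 h of IL-4. The shared treatment text also names LPS, which no title or description of these samples mentions. The labels do not say whether the 2 samples of a group were separate cultures. The p-values below therefore speak only of the spread among these arrays, part of which may be technical.

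IL-4 binds a receptor made of Il4ra and the common gamma chain Il2rg. The receptor activates Jak kinases and the transcription factor Stat6. In mouse macrophages this pathway is known to raise arginase (Arg1), the secreted protein Retnla, the chitinase-like proteins Chil3 and Chil4 and the mannose receptor Mrc1. Balb/c and C57BL6 are inbred strains long used as contrasting models of immunity to infection, and they carry different MHC haplotypes.

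Each one-colour Agilent array had 43379 spots that were not controls. Levels below are log2 processed signals minus the 75th percentile of their array, so a level of 0 equals that percentile and the levels of different genes are not compared. The share of spots well above background by the scanner's own call was 54.9% and 56.8% on the Balb/c arrays and 65.7% and 66.1% on the C57BL6 arrays. The lowest level so called was near -5.09 and -5.00 in Balb/c and -6.30 and -6.48 in C57BL6, which makes it harder for a gene to count as measured in Balb/c. Over all genes tested, the 2 arrays of a strain correlated with Pearson's r of 0.986 (Balb/c) and 0.992 (C57BL6), and arrays of different strains with 0.965 to 0.970. All 17 macrophage identity genes tested were well above background in C57BL6 and 16 in Balb/c, with median levels of 4.97 in Balb/c and 5.04 in C57BL6. Of these 17 genes only Mpeg1, a pore-forming protein of phagocytes, was called, with a log2 difference of 0.93 ± 0.21 (standard error, SE), a call kept without Balb/c replicate 2 alone. No gene of a 6-gene sex-linked list was called. The C57BL6 arrays shared a slide (slide 3), and the Balb/c arrays lay on slides 1 and 2, so no slide held both groups and no value within a slide can be given.

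Of 17441 genes tested, 1072 (6.15%) differed between the strains after 18 h of IL-4 at an adjusted p below 0.05 (limma, Benjamini-Hochberg). Of these, 436 genes (2.50% of those tested) were higher in Balb/c and 636 (3.65%) were higher in C57BL6, and 851 (4.88%) differed at least 2-fold. The median log2 difference over all genes, Balb/c minus C57BL6 as everywhere below, was -0.02. At an unadjusted p below 0.05 there were 3394 genes. For every one of the 1072 genes both arrays of a strain lay on the same side of both arrays of the other, which also held for 50.9% of all genes tested. In 268 of the 1072 genes the signal was not well above background on either Balb/c array, against 29 for C57BL6. The counts of tested genes were 1816 and 33. Among genes well above background on all 4 arrays, tested on their own, 758 were called and 395 of them were higher in Balb/c (52.1%), so the excess of genes higher in C57BL6 was not present in that set. Leaving out 1 array gave 527 (without Balb/c replicate 1), 427 (without Balb/c replicate 2), 379 (without C57BL6 replicate 1) and 367 calls (without C57BL6 replicate 2). With normexp background correction 129 genes were called, all of them among the 1072, and with slide as a block 483, of which 372 were.

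The widest gap was in Ifi202b, a DNA-binding member of the interferon-inducible p200 family known as an antagonist of the sensor Aim2. Its level was 5.28 and 5.04 on the Balb/c arrays and -8.40 and -8.49 on the C57BL6 arrays. The C57BL6 values were not well above background, so only a bound can be given: at least 2993-fold higher in Balb/c (adjusted p = 4.04e-06). Bounds here set the mean of the bright strain against a limit for the dim strain. The limit was the mean, over its arrays, of the lowest level that counted as measured there, or of the gene's own level where higher. That lowest level was the lowest of any probe on the array. Some genes above it were not called measured, so the bounds are approximate. Genes with a dim strain were kept because of the bright strain alone. Their p-values and intervals, here and below, come from the fitted signals, values under background included, and not from the limit. They therefore rest partly on values that were not well above background. H2-Ea, the alpha chain of the class II molecule H2-E, stood at 1.79 and 1.06 in Balb/c and at -8.06 and -8.20 in C57BL6. It was at least 225-fold higher in Balb/c (adjusted p = 0.000156). C57BL6 mice are known to lack H2-E because of a deletion in this gene's promoter. Ptprd, a receptor tyrosine phosphatase, had levels of 1.01 and 1.43 in Balb/c and -7.75 and -7.61 in C57BL6. It was at least 195-fold higher in Balb/c (adjusted p = 0.000482).

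Gbp2b, a guanylate-binding protein of the interferon response, measured -0.13 and -1.20 in Balb/c and -8.45 on both C57BL6 arrays, at least 52.8-fold higher in Balb/c (adjusted p = 0.000111). Arg2, the mitochondrial arginase, measured -0.26 and -1.34 in Balb/c and -8.47 and -7.63 in C57BL6, at least 48.1-fold higher in Balb/c (adjusted p = 0.00132). Arg2 was the only called member of a 17-gene arginine and polyamine list (5.9%, against 6.15% of all genes). The list's median log2 difference was 0.06. Smaller bounds held for the membrane adaptor Ank2 (at least 32.7-fold), the angiopoietin-like protein Angptl7 (at least 17.8-fold) and Plppr4 (at least 12.8-fold). The actin-capping protein Tmod4 measured -2.54 and -2.11 in Balb/c and -5.89 and -6.38 in C57BL6. Its C57BL6 levels were not called well above background but lay above the lowest level so called, so the value is the fitted log2 difference of 3.81 (95% interval 3.30 to 4.32) and not a lower bound. Il6, the cytokine interleukin-6, was spread within Balb/c, at -3.24 and -1.50, above -6.43 and -7.72 in C57BL6, a bound of at least 16.2-fold (adjusted p = 0.0278). The call of Il6 was kept without Balb/c replicate 1 (smallest adjusted p over the 4 fits 0.0499) and lost without any of the other 3 arrays, up to an adjusted p of 0.178, and with slide as a block.

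In the other direction the widest gap was in Trim12a, a tripartite motif protein related to the retroviral restriction factor Trim5. Its level was 2.69 and 2.71 in C57BL6 and -6.93 and -6.80 in Balb/c, where it was not well above background. It was at least 214-fold higher in C57BL6 (adjusted p = 4.04e-06). Tspan32, a tetraspanin of blood cells, stood at 2.49 and 2.17 in C57BL6 and at -5.71 and -6.77 in Balb/c, at least 166-fold higher in C57BL6 (adjusted p = 0.00366). Vill, a villin-like actin-binding protein, measured 1.55 and 1.66 in C57BL6 against -5.35 and -4.53 in Balb/c (adjusted p = 1.96e-05). Its level on Balb/c replicate 2 was not called well above background but lay above the lowest level so called there. The value is therefore the fitted log2 difference of -6.54 (95% interval -7.18 to -5.90) and not a bound. A second probe of each of these 3 genes gave a log2 difference of the same sign: -5.68 for Trim12a, -8.06 for Tspan32 and -5.11 for Vill.

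Rab6b, a small GTPase of Golgi transport, was at least 55.1-fold higher in C57BL6, and Padi4, an enzyme that citrullinates histones, at least 19.4-fold. The zinc finger gene Zfp874a (at least 25.8-fold), the phosphatase inhibitor Ppp1r14c (at least 21.9-fold), Dppa3 (at least 20.6-fold) and Tmtc2 (at least 18.7-fold) were likewise below background on both Balb/c arrays. Another probe of Ppp1r14c gave a log2 difference of 0.17, and another of Tmtc2 gave -1.42. Cck, the peptide hormone cholecystokinin, differed between the C57BL6 arrays themselves (-1.35 and 0.20). Its bound was at least 21.9-fold (adjusted p = 0.0452), and its call was lost without any 1 of the 4 arrays (adjusted p 0.117 to 0.239) and with slide as a block. Of the 20 genes in this group, Ifi202b, H2-Ea, Ptprd, Trim12a, Tspan32 and Vill were the ones whose calls also held under normexp background correction.

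**Figure D1:**
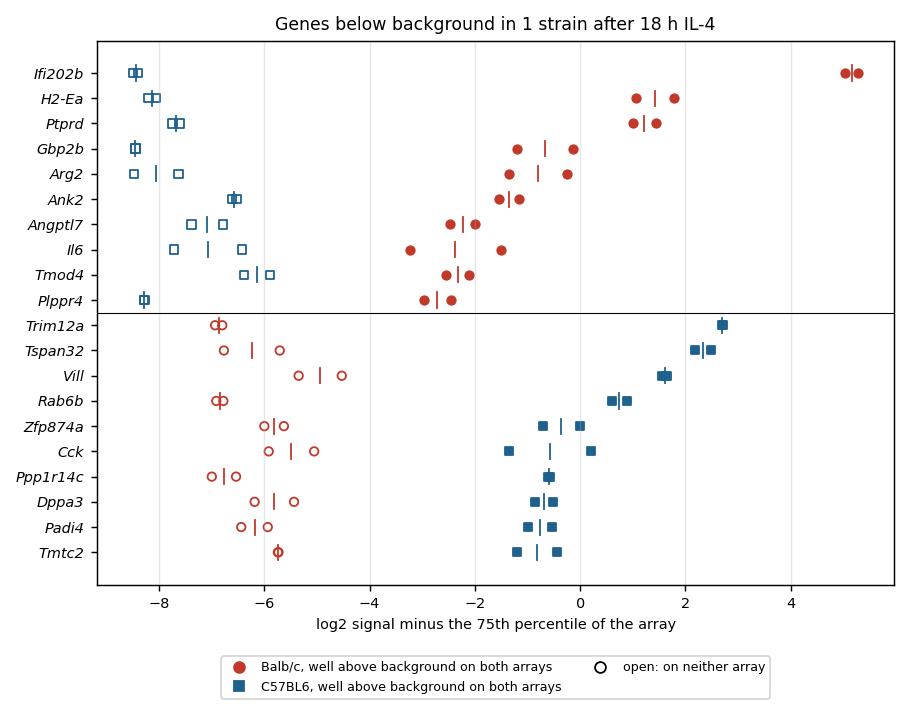
Levels on each of the 4 arrays (log2 signal minus the 75th percentile of the array; red circles Balb/c, blue squares C57BL6, short bars the mean of 2 arrays) of the 20 genes that were below background on both arrays of 1 strain. The 10 upper genes were measured in Balb/c, the 10 lower ones in C57BL6, and the 2 strains do not overlap for any of them.

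Among genes well above background on all 4 arrays, the largest difference toward Balb/c was in Hal, histidine ammonia-lyase, which starts histidine breakdown. Hal measured 4.81 and 3.68 in Balb/c and -5.74 and -5.30 in C57BL6, a log2 difference of 9.76 ± 0.46 (SE), or 868-fold (adjusted p = 2.86e-05). Atp6v0e2, a subunit of the proton pump that acidifies lysosomes, measured 2.39 and 1.88 against -5.29 and -4.67. That is a log2 difference of 7.11 ± 0.33 (adjusted p = 2.86e-05), and its other probe gave 5.60. The calcium-dependent membrane-binding protein Cpne8 differed by 5.93 ± 0.64 and the sulfotransferase Chst10 by 5.49 ± 0.19 on the log2 scale. Msh5, a meiotic MutS homologue, differed by 5.86 ± 0.21, and its other 2 probes gave 4.26 and 5.70. Sapcd1, on chromosome 17 like Msh5, differed by 4.50 ± 0.31.

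Several secreted or surface proteins belonged to the same set. Cxcl14, a chemokine, measured 1.31 and 0.08 in Balb/c and -4.55 and -3.66 in C57BL6, 27.9-fold higher in Balb/c (adjusted p = 0.00127). It was the only one called among 20 chemokines tested (5%, against 6.15% of all genes). Ctse, an aspartic protease of the endosome, measured 1.85 and 1.60 against -2.59 and -2.87, 21.9-fold higher in Balb/c (adjusted p = 0.000541). Plau, the urokinase plasminogen activator, measured 4.09 and 4.23 in Balb/c and 0.00 and 0.70 in C57BL6, 14.1-fold higher in Balb/c (adjusted p = 0.00366). Its receptor Plaur ran the other way, at 3.49 and 3.33 in Balb/c and 4.43 and 4.61 in C57BL6, 2.16-fold higher in C57BL6 (adjusted p = 0.0219), a call lost without any 1 of the 4 arrays. The metalloprotease Adamts1 (15.4-fold), the adhesion molecule Nrcam (20.7-fold) and Unc13b, a priming factor of vesicle release (12.9-fold), were also higher in Balb/c. The probes of Unc13b disagreed, with other log2 differences of 3.57 and -0.10, and its call was lost without Balb/c replicate 1 or C57BL6 replicate 1.

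Toward C57BL6, Thumpd1, an adaptor of tRNA acetylation, measured 2.41 and 2.61 in C57BL6 and -3.79 and -4.56 in Balb/c, a log2 difference of -6.68 ± 0.35 (adjusted p = 4.15e-05). Another probe of the gene gave 0.07. Uchl1, a deubiquitinating enzyme, measured 3.81 and 4.08 in C57BL6 against -0.63 and -0.49 in Balb/c, 22.6-fold higher in C57BL6 (adjusted p = 0.00139). C5ar2, a receptor for the complement fragment C5a, measured 0.77 on both C57BL6 arrays and -3.57 and -3.36 in Balb/c, 18.8-fold higher in C57BL6 (adjusted p = 0.000234). These 3 genes kept their calls under every alternative run. Rab7b, a lysosomal GTPase that limits Toll-like receptor signalling, did so too. Rab7b measured 6.31 and 6.30 in C57BL6 and 2.80 and 2.18 in Balb/c, 14.1-fold higher in C57BL6 (adjusted p = 6.77e-05).

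Slamf7, an immune cell adhesion receptor, was 13.4-fold higher in C57BL6, and Zc3h12d, an RNA-binding regulator of inflammatory transcripts, 12.8-fold. The exchange factor Plekhg1 (20.2-fold), the filamin-binding protein Fblim1 (17.4-fold), the O-glycan branching enzyme Gcnt1 (15.6-fold), and Arl2bp (12.4-fold) belonged to the same group. Other probes of Gcnt1 gave log2 differences of 0.31 and 0.45, opposite in sign to the -3.96 of the probe reported. For Plekhg1, Fblim1 and Arl2bp other probes gave smaller differences of the same sign: -1.12, -2.15 and -0.96. Edn1, the peptide endothelin-1, measured -0.37 and 0.00 in C57BL6 and -4.25 and -3.47 in Balb/c, 12.8-fold higher in C57BL6 (adjusted p = 0.0275). Its call was lost without any 1 of the 4 arrays, up to an adjusted p of 0.162, and with slide as a block. Of 310 called genes with more than 1 kept probe, 52 had a probe of opposite sign, so a single probe's difference need not be that of the whole transcript.

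**Figure D2:**
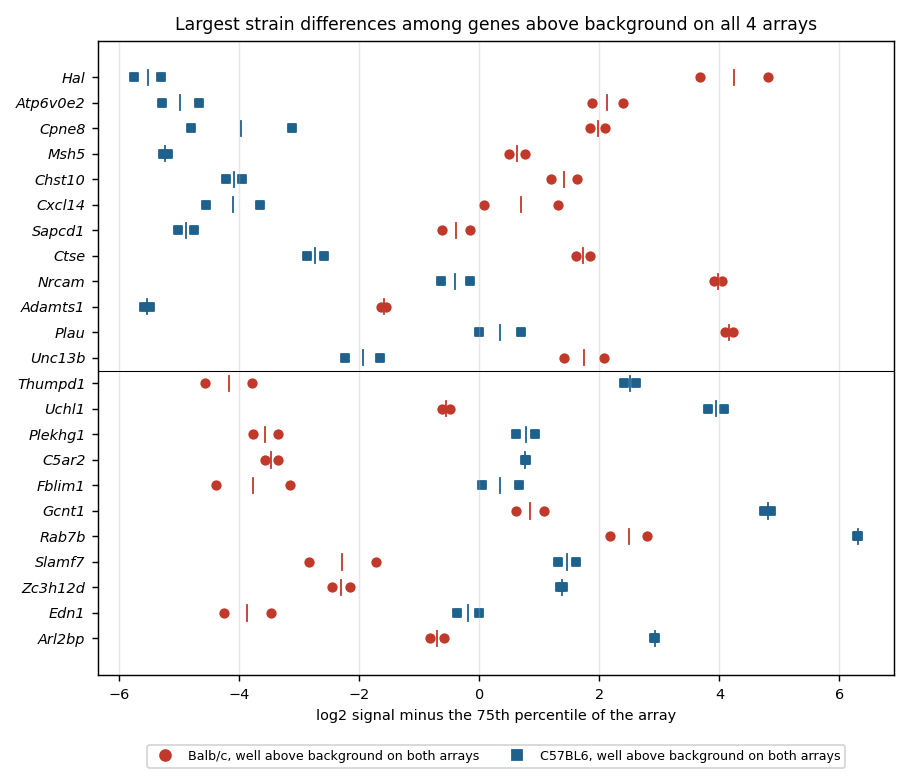
Levels on each of the 4 arrays (log2 signal minus the 75th percentile of the array; red circles Balb/c, blue squares C57BL6, short bars the mean of 2 arrays) of 23 genes with the largest strain differences among those above background on all arrays. Hal, at the top, and Thumpd1, the first gene below the line, have log2 differences of 9.76 and -6.68.

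Genes of alternative activation were mostly not called as different. Of 26 tested, 3 were higher in Balb/c, 3 were higher in C57BL6 and 20 were not called (23.1% called, against 6.15% of all genes). The list's median log2 difference was 0.26, against -0.02 over all genes, and -0.08 with slide as a block. Arg1, the cytosolic arginase, measured 4.59 and 4.74 in Balb/c and 3.82 and 4.51 in C57BL6, a log2 difference of 0.50 ± 0.45 with a 95% interval from -0.53 to 1.53 (adjusted p = 0.661). Retnla, a secreted resistin-like protein, had a difference of -0.03 ± 1.19, and its interval from -2.77 to 2.72 leaves a several-fold difference in either direction possible. Mrc1, the mannose receptor, was measured more tightly, at 0.20 ± 0.19 with an interval from -0.23 to 0.63, that is 0.851-fold to 1.55-fold. The differences were 0.33 ± 0.87 for the galactose lectin Mgl2 and 1.32 ± 1.00 for the chemokine Ccl24, with intervals from -1.67 to 2.32 and from -0.99 to 3.63. The adhesion molecule Cdh1 had -0.55 ± 0.54, from -1.80 to 0.70.

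The chitinase-like proteins were the members that differed most. Chil3 (Ym1) measured 5.71 and 4.79 in C57BL6 and 2.48 and 0.95 in Balb/c, so the strains did not overlap, and it was 11.6-fold higher in C57BL6 (adjusted p = 0.011). Chil4 (Ym2) measured 2.49 and 1.26 in C57BL6 and -0.97 and -2.37 in Balb/c, 11.7-fold higher in C57BL6 (adjusted p = 0.0174). These genes are near-identical copies whose probes may share signal. Both calls were lost without Balb/c replicate 2 or C57BL6 replicate 1, when only the 4 arrays compared were fitted, and under normexp background correction. Over the fits that left out an array, the log2 difference ran from -4.30 to -2.77 for Chil3 and from -4.25 to -2.85 for Chil4. Flt1, a receptor for vascular endothelial growth factor, was 3.13-fold higher in C57BL6 (adjusted p = 0.0092). Among the fits that left out an array, the call of Flt1 was kept only without C57BL6 replicate 1. It was also lost with slide as a block and under normexp.

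Toward Balb/c, Cd163, the haemoglobin scavenger receptor, was 2.95-fold higher (adjusted p = 0.00735). The call of Cd163 was lost without C57BL6 replicate 1, with slide as a block, under normexp and when only the 4 arrays compared were fitted. Tfrc, the transferrin receptor, was 2.03-fold higher (adjusted p = 0.0369), and the lectin Cd209a, well above background on 1 of 2 C57BL6 arrays, had a log2 difference of 2.61 ± 0.61 (adjusted p = 0.0457). Both calls were lost without any 1 of the 4 arrays. In the related Ear ribonuclease family, 2 of 8 genes tested were called (25%, against 6.15% of all genes). Ear6 and Ear10 were 3.08-fold and 3.64-fold higher in C57BL6 (adjusted p of 0.0333 and 0.0455). Members of this family are near-identical in sequence and cannot be told apart with certainty. The call of Ear10 was lost without any 1 of the 4 arrays and that of Ear6 was kept without Balb/c replicate 1 alone.

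**Figure D3:**
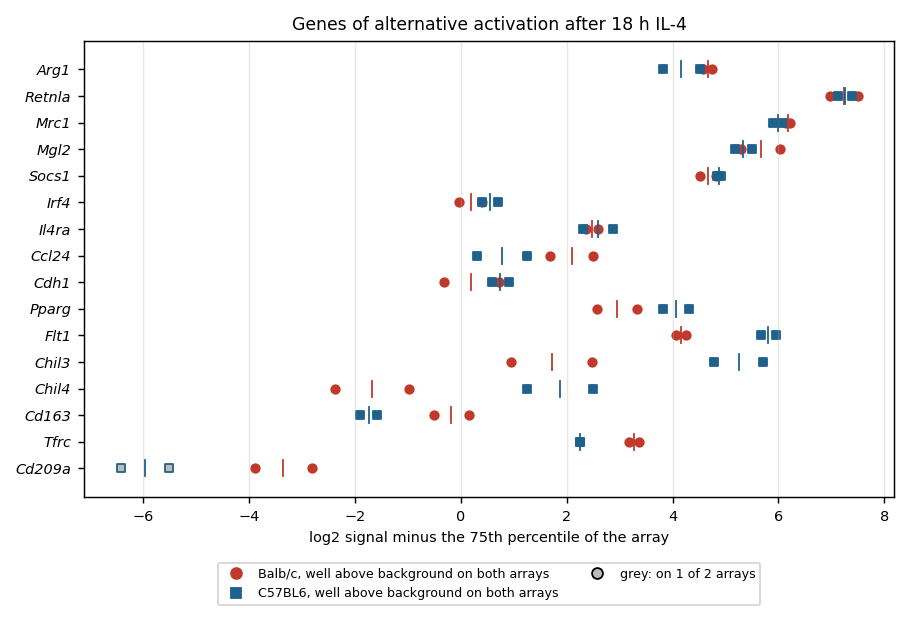
Levels on each of the 4 arrays (log2 signal minus the 75th percentile of the array; red circles Balb/c, blue squares C57BL6, short bars the mean of 2 arrays) of genes linked to alternative activation. The upper genes, Arg1 to Pparg, were not called, and the 6 lower ones, Flt1 to Cd209a, were.

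No gene of the IL-4 receptor pathway was called among 16 tested (0%, against 6.15% of all genes). Il4ra differed by -0.11 ± 0.32, with an interval from -0.84 to 0.63, Stat6 by -0.25 ± 0.17, and the gamma chain Il2rg by -0.83 ± 0.20 (adjusted p = 0.0529). The feedback inhibitor Socs1 differed by -0.21 ± 0.19, from -0.65 to 0.24. None of 19 transcription factors linked to this state was called either. Irf4 differed by -0.37 ± 0.55, and the closest to the threshold were the lipid-sensing receptor Pparg at -1.11 ± 0.27 (adjusted p = 0.0523) and Nr4a1 at -1.14 ± 0.29 (adjusted p = 0.0576). On simulated data with these groups, limma called 28% of genes given a log2 difference of 1 and 78% of those given 2. That simulation changed 50 genes of each size, far fewer than were called here, which makes its adjusted threshold stricter. Its shares therefore need not be those of this comparison, and the uncalled genes are not shown to be alike in the strains.

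Interferon-inducible genes were called in both directions. Of 16 interferon-inducible GTPases tested, 5 were higher in C57BL6 and 1, Gbp2b, in Balb/c (37.5% called, against 6.15% of all genes). Their median log2 difference was -0.62. The GTPases of this group coat or disrupt the vacuoles of intracellular microbes. Irgm2 measured 1.39 and 1.35 in Balb/c and 2.80 and 2.73 in C57BL6, 2.63-fold higher in C57BL6 (adjusted p = 0.00242), in every fit that left out an array. Gvin1, a very large interferon-inducible GTPase, was 2.39-fold higher in C57BL6, with other probes at -1.32 and -0.26. Gbp2 was 2.57-fold, Tgtp1 2.08-fold and Igtp 1.61-fold higher in C57BL6 (adjusted p 0.00657 to 0.0311 for these 4). Igtp lost its call without any 1 of the 4 arrays, Gvin1 without Balb/c replicate 1 or C57BL6 replicate 1 and with slide as a block, Tgtp1 without any but Balb/c replicate 2, and Gbp2 without any but Balb/c replicate 1. No GTPase was called under normexp background correction. These families hold close copies whose probes may share signal.

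In a 34-gene interferon response list 2 genes were higher in each strain (11.8% called, against 6.15% of all genes). The list's median log2 difference was -0.58 after 18 h of IL-4 and -0.10 in mock cells, against -0.02 and -0.11 over all genes. Ifi44, an interferon-induced protein that restrains virus growth, measured 1.94 and 2.76 in Balb/c and -0.72 and -0.66 in C57BL6, 8.22-fold higher in Balb/c (adjusted p = 0.000585). Its other probe gave a log2 difference of 1.66, against 3.04, and was not called (adjusted p = 0.14). Its neighbour in the family, Ifi44l, measured 0.75 and 1.64 against -7.46 and -5.56, with only 1 C57BL6 array well above background (log2 difference 7.70 ± 0.77, other probe 9.89). Ifit2, which blocks translation of viral RNA, measured -0.61 and -0.23 in Balb/c and 0.95 and 0.76 in C57BL6, 2.43-fold higher in C57BL6 (adjusted p = 0.0132). Ifit3 was 2.61-fold higher in C57BL6 (adjusted p = 0.0302). Both Ifit calls were kept in 1 of the 4 fits that left out an array: without Balb/c replicate 2.

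Among 12 p200 family genes and nucleic acid sensors, 33.3% were called, against 6.15% of all genes. Ifi202b was higher in Balb/c and 3 genes were higher in C57BL6. The list's median was -0.56, and -0.21 with slide as a block. Ifi209 measured -0.57 and -0.29 in Balb/c and 1.38 and 1.47 in C57BL6, 3.63-fold higher in C57BL6 (adjusted p = 0.000929). Ifi205 was 2.20-fold higher in C57BL6, with another probe at -0.09, and its call was lost with slide as a block, with the mean of its probes (log2 difference -0.61) and under normexp. Ifi207 was 2.24-fold higher, a call lost without any 1 of the 4 arrays. The p200 genes are close copies as well.

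The promoters of 4 of the interferon-inducible genes higher in C57BL6, and of Gbp2b, the GTPase higher in Balb/c, are shown because they carry the interferon response motif searched for in this group. The promoters of Ifi44, Ifi209 and Ifi202b, also called, held no match to this exact pattern, and looser forms of it were not searched. The pattern searched, GAAA followed by any 2 bases and a second GAAA, on either strand, occurred in 3.14% of 11163 promoters of tested genes, in 6.70% of 388 promoters of genes called higher in C57BL6 and in 2.43% of 288 of genes called higher in Balb/c. Of the 48 interferon-related list genes with a promoter 26 held it (54.2%), as did 7 of the 11 called higher in C57BL6 (63.6%) and 1 of the 4 called higher in Balb/c. The STAT6-like pattern, TTC and GAA around any 4 bases, occurred in 5.55% of all promoters, in 6.19% of those higher in C57BL6 and in 4.51% of those higher in Balb/c. Matches to the 2 patterns were counted separately and may overlap. The sequences are the 300 bases around the gene start, most of them upstream, in the RefSeq reference GRCm38.p6, which is of C57BL/6J, so they do not show what Balb/c carries. Capitals mark the matches.
Igtp promoter, chr11:58199306-58199605, + strand: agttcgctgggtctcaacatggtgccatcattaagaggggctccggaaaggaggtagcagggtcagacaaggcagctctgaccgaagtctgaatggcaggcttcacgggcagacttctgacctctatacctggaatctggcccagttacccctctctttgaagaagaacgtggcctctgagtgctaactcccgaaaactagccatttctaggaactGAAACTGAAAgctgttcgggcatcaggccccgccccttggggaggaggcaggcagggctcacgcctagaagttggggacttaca
Irgm2 promoter, chr11:58214727-58215026, + strand: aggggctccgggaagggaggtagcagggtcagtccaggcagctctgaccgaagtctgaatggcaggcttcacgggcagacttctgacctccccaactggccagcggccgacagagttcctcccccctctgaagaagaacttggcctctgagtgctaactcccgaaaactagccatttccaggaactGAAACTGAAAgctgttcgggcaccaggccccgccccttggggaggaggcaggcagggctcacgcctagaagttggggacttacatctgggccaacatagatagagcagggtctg
Gbp2 promoter, chr3:142620413-142620712, + strand: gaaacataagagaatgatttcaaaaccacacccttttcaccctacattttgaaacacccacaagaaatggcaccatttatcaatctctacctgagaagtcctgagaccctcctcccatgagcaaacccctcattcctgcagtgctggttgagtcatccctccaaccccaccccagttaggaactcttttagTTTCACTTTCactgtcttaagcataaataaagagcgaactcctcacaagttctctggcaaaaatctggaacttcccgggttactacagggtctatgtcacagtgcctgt
Ifit3 promoter, chr19:34583279-34583578, + strand: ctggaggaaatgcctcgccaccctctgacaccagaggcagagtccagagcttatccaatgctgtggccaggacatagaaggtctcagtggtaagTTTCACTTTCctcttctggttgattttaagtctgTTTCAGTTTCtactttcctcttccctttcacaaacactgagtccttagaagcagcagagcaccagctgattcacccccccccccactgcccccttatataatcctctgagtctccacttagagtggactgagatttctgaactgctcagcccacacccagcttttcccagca
Gbp2b promoter, chr3:142594597-142594896, + strand: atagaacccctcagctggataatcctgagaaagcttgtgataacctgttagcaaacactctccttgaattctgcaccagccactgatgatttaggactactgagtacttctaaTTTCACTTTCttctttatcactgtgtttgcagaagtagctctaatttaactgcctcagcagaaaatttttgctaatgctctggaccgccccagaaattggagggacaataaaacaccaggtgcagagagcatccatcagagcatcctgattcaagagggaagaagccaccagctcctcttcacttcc

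Igtp and Irgm2, both on chromosome 11, carry the same 10 letters in nearly the same surroundings, Ifit3 carries 2 matches, and Gbp2b, well above background only in Balb/c, carries 1. A match is a description of these letters and not evidence of a bound site.

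The tripartite motif (Trim) family, which includes antiviral ubiquitin ligases, had 8 members higher in C57BL6 and 1 higher in Balb/c among 24 tested. That is 37.5% called, against 6.15% of all genes, while the list's median was -0.16. Besides Trim12a, Trim34a measured 1.08 and 1.06 in C57BL6 and -2.10 and -1.79 in Balb/c, 8.09-fold higher in C57BL6 (adjusted p = 6.77e-05). Its other 2 probes gave smaller log2 differences, -1.32 and -1.55, against -3.02. Trim30d was 4.46-fold (adjusted p = 0.000614; other probe -3.51), Trim56 2.82-fold (adjusted p = 0.00179) and Trim36 3.00-fold higher in C57BL6 (adjusted p = 0.00932, lost without Balb/c replicate 2 or C57BL6 replicate 2 and with slide as a block). Trim6, well above background on 1 of 2 Balb/c arrays, had a log2 difference of -1.96 ± 0.19. Along chromosome 7 the 6 neighbouring tested genes Olfr649, Trim6, Trim34a, Trim12a, Trim12c and Trim30b were all called and all higher in C57BL6, with log2 differences from -9.56 to -1.39. This run was singled out after its values were seen, and copies of one another within it may share probe signal.

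Called neighbours were also present elsewhere. Of 860 called genes with a position, 20.8% had a called neighbour among tested genes, against 11.1% of genes not called, and 13 runs of 3 or more called neighbours were present. A run of 6 zinc finger genes and related loci on chromosome 4, among them Zfp982 and Zfp979, was higher in C57BL6 throughout, with log2 differences from -3.47 to -0.74. The share of genes called ranged from 3.03% on the X chromosome to 8.98% on chromosome 13.

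In the Schlafen and Ly6 list, 4 of 14 genes tested were higher in C57BL6 and none in Balb/c. That is 28.6% called, against 6.15% of all genes, with a median of -0.59. Ly6c1 measured 3.57 and 3.80 in C57BL6 and 0.67 and 0.16 in Balb/c, 9.65-fold higher in C57BL6 (adjusted p = 0.000871), with another probe at -0.50. Ly6a (Sca-1) measured 1.52 and 1.85 against -0.78 and -1.54, 7.17-fold higher in C57BL6 (adjusted p = 0.00332). Slfn1, below background on both Balb/c arrays, was at least 2.04-fold higher in C57BL6 (adjusted p = 0.0277), kept without Balb/c replicate 2 alone. Ly6d had a log2 difference of -1.46 ± 0.31 and lost its call without any 1 of the 4 arrays.

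**Figure D4:**
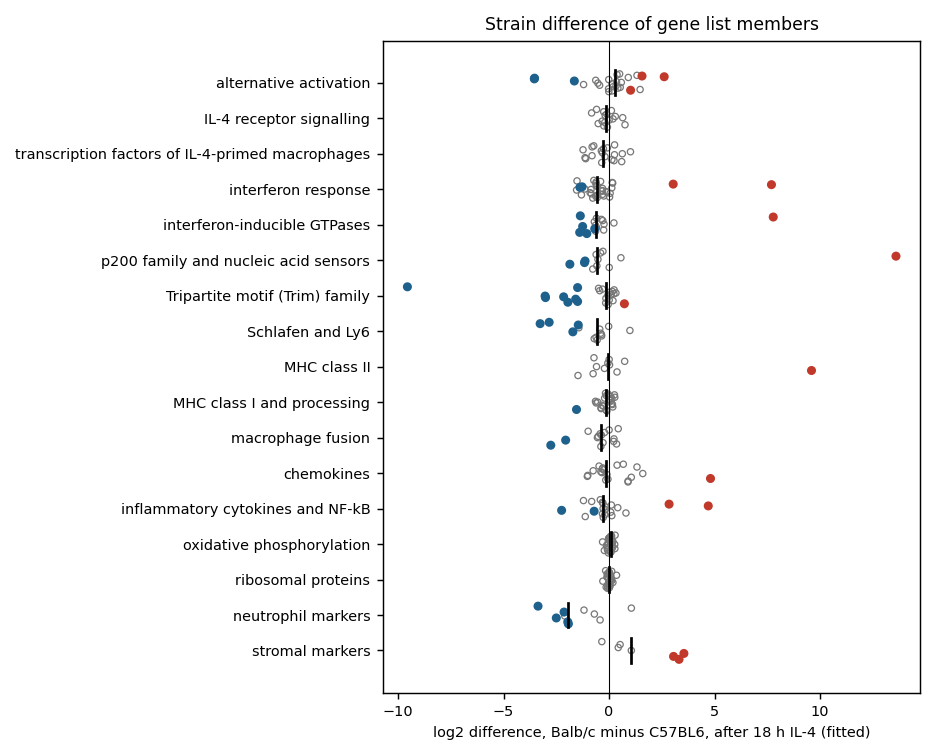
Fitted log2 difference (Balb/c minus C57BL6) of each tested member of 17 gene lists after 18 h of IL-4. Red points were called higher in Balb/c, blue points higher in C57BL6, open points were not called, and black bars are list medians, which run from -1.95 (neutrophil markers) to 1.05 (stromal markers).

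Antigen presentation genes were called at single members, near the share over all genes. Of 11 class II genes tested only H2-Ea was called (9.1%, against 6.15% of all genes). H2-Aa differed by 0.74 ± 0.60, while another of its probes gave -2.09, and the invariant chain Cd74 by -0.72 ± 0.57. Of 23 class I and processing genes only Tap2, a subunit of the peptide transporter, was called (4.3%). It measured 2.50 and 2.56 in C57BL6 and 1.05 and 0.90 in Balb/c, 2.94-fold higher in C57BL6 (adjusted p = 0.000583), under every alternative run. Class I and class II genes are polymorphic between these haplotypes, and probe binding to each allele was not tested. Among 14 costimulatory genes 14.3% were called, against 6.15% of all genes. The inhibitory receptor Havcr2 (Tim-3) was 3.18-fold higher in C57BL6 (adjusted p = 0.00484, other probe -2.43) and Cd276 at least 4.22-fold (adjusted p = 0.000177).

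Of 16 complement genes tested 18.8% were called, against 6.15% of all genes. C1qb and C1qa, chains of the classical pathway's recognition protein, were higher in C57BL6. C1qb measured 5.47 and 5.28 in C57BL6 and 2.43 and 2.32 in Balb/c, 7.97-fold higher in C57BL6 (adjusted p = 0.00134), under every alternative run. C1qa was 3.04-fold higher (adjusted p = 0.0472), a call lost without any 1 of the 4 arrays, and C1qc differed by -1.56 ± 0.39 (adjusted p = 0.0542).

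In innate sensing, 2 of 23 Toll-like receptor genes were called (8.7%, near the 6.15% of all genes). Tlr4, the receptor for bacterial LPS, measured 3.75 and 3.42 in Balb/c and 2.30 and 2.35 in C57BL6, 2.39-fold higher in Balb/c (adjusted p = 0.00768). The adaptor Myd88 was 1.54-fold higher in C57BL6 (adjusted p = 0.0387). The Tlr4 call was kept without Balb/c replicate 2 alone, and the Myd88 call was lost without any 1 of the 4 arrays. Nlrp1a, an inflammasome sensor, was below background on both Balb/c arrays and at -2.68 on both C57BL6 arrays, at least 5.15-fold higher in C57BL6 (adjusted p = 6.85e-05). Il1b, the cytokine that inflammasomes release, was below background in C57BL6 and at -4.38 and -3.66 in Balb/c, at least 5.17-fold higher in Balb/c (adjusted p = 0.014). Its call was kept without Balb/c replicate 1 alone. The NF-kB inhibitors Nfkbid (4.76-fold, adjusted p = 0.0162) and Nfkbie (1.64-fold, adjusted p = 0.0386) were higher in C57BL6, and both calls were lost without any 1 of the 4 arrays. Ccr7, a homing receptor, was 4.90-fold higher in Balb/c (adjusted p = 0.049), and this call too was lost without any 1 of the 4 arrays. Lilra6, the only called gene of 32 Fc and paired receptors (3.1%), was 1.87-fold higher in C57BL6 (adjusted p = 0.0216), kept without Balb/c replicate 1 alone.

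Both called genes of the 15-gene macrophage fusion list were higher in C57BL6 (13.3% called, against 6.15% of all genes). Ocstamp, a membrane protein needed for osteoclast and giant cell fusion, measured 2.04 and 2.58 in C57BL6 and 0.02 and -0.93 in Balb/c, 6.80-fold higher in C57BL6 (adjusted p = 0.00243). Its relative Dcstamp measured 2.28 and 2.69 against 0.92 and -0.06, 4.17-fold higher in C57BL6 (adjusted p = 0.0156). Ocstamp was called in every fit that left out an array, Dcstamp in 1 of 4. The adhesion receptor Itga9 was 3.57-fold higher in Balb/c (adjusted p = 0.00162) and Itga6 3.01-fold higher in C57BL6 (adjusted p = 0.00387). They were among 24 tested (8.3% called, near the share of all genes). Another probe of Itga9 gave a log2 difference of 5.78, against 1.84 for the probe reported. The call of Itga6 was lost with slide as a block, with the mean of its probes and under normexp, and its other probes gave -0.86 and -1.52. The laminin chain Lama3 was 2.37-fold higher in Balb/c (adjusted p = 0.0208), but another probe gave -0.61 and the call was lost without any 1 of the 4 arrays.

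No gene was called (0%, against 6.15% of all genes) in the following metabolic and housekeeping lists. They held 30 oxidative phosphorylation genes (median 0.07), 22 cholesterol synthesis genes (median -0.33), 20 fatty acid oxidation genes (median 0.00) and 28 ribosomal protein genes (median 0.00). Of 30 antioxidant genes 10% were called, and of 13 iron handling genes 23.1%. Nnt, the mitochondrial transhydrogenase in which C57BL/6J mice are known to carry a deletion, measured 2.30 and 2.21 in Balb/c and 0.88 and 0.82 in C57BL6, 2.65-fold higher in Balb/c (adjusted p = 0.00715). Other Nnt probes gave 1.37, 1.41 and -0.12, and the call was kept without Balb/c replicate 2 alone (adjusted p up to 0.0656). Glo1, the glyoxalase that clears methylglyoxal, was 3.13-fold higher in Balb/c (adjusted p = 0.00684), and the glycolytic enolase Eno2 2.46-fold (adjusted p = 0.00631). Both calls were lost without C57BL6 replicate 2 and with slide as a block. Gclm, a subunit of the enzyme that starts glutathione synthesis, was 1.60-fold higher in C57BL6 (adjusted p = 0.0434), and Steap3, a ferrireductase, 2.41-fold (adjusted p = 0.00546). The call of Gclm was lost without any 1 of the 4 arrays, that of Steap3 without C57BL6 replicate 2, and both with slide as a block.

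Of 27 lipid handling genes tested 7.4% were called, near the 6.15% of all genes. The scavenger receptor Marco was 4.11-fold higher in C57BL6 (adjusted p = 0.00638, lost without C57BL6 replicate 1 and with slide as a block). The oxysterol receptor Nr1h3 was 2.37-fold higher in C57BL6 (adjusted p = 0.0261, kept in 1 of 4 fits that left out an array). The lysosomal protease Ctsc was 1.92-fold higher in Balb/c (adjusted p = 0.0289), and the cell cycle genes Ccnb2 and Cdc20 were 2.02-fold and 2.13-fold higher in Balb/c (adjusted p of 0.0243 and 0.0379). These 3 calls were lost without any 1 of the 4 arrays. Of the 36 cell cycle genes tested 5.6% were called, near the 6.15% of all genes. Log2 differences in this list ran from -2.80, not called, to 1.09. The list had a median of 0.30 after 18 h of IL-4 and -0.81 in mock cells. In the Ms4a family Ms4a6d was 2.28-fold higher in Balb/c (adjusted p = 0.0329) and Ms4a3 at least 2.18-fold higher in C57BL6 (adjusted p = 0.0273), each kept in 1 of those 4 fits.

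Markers of other cells that a marrow culture can hold also moved with strain. Of 10 neutrophil markers tested, 5 were higher in C57BL6 and none in Balb/c (50% called, against 6.15% of all genes, 3.65% higher in C57BL6). The median log2 difference was -1.95, and -1.81 in mock cells. Members ran from -3.37 to 1.06, the latter toward Balb/c and not called. S100a9, an abundant neutrophil calcium-binding protein, measured 3.29 and 2.75 in C57BL6 and 0.78 and 1.41 in Balb/c, 3.81-fold higher in C57BL6 (adjusted p = 0.00658). S100a8 was 3.89-fold, and the granule proteins Ltf and Ngp were 4.39-fold and 5.67-fold higher in C57BL6. Camp was at least 2.44-fold higher. The calls of S100a8 and S100a9 were lost without C57BL6 replicate 1, and all 5 calls were lost under normexp background correction. The log2 of the summed signal of the list was 3.68 and 3.26 in Balb/c and 4.28 and 3.70 in C57BL6, and 8 of its 10 genes were well above background in Balb/c and 10 in C57BL6. In bulk RNA, fewer such cells and less of their RNA per cell cannot be told apart, and the part of either in the genes higher in C57BL6 was not tested.

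Of 7 stromal markers tested, 3 were higher in Balb/c and none in C57BL6 (42.9% called, against 6.15% of all genes). Their median was 1.05, and -0.15 in mock cells. Pdgfrb, a growth factor receptor of mesenchymal cells, measured -0.64 and -1.09 in Balb/c and -4.36 and -4.47 in C57BL6, 11.7-fold higher in Balb/c (adjusted p = 0.00227). The matrix protein Postn was 8.32-fold higher (adjusted p = 0.000482), but another of its probes gave -1.27 and the mean of its probes, 0.89, was not called, and Thy1, above background on 1 of 2 C57BL6 arrays, had a log2 difference of 3.32 ± 0.38. The log2 of the summed signal of this list was 5.04 and 4.95 in Balb/c and 5.36 and 5.22 in C57BL6. This sum was nearly all from 1 gene, Acta2, smooth muscle actin, at 4.97 and 4.89 in Balb/c and 5.35 and 5.20 in C57BL6. Other, much dimmer probes of Acta2 gave log2 differences of -2.36 and -0.80, against -0.34 for the probe reported. The first of them was called when limma tested each probe on its own (adjusted p = 0.0309). The part of these markers in other genes higher in Balb/c was not tested. In the remaining lists, Cd8b1 of 8 T cell markers (12.5% called) was 1.91-fold higher in Balb/c (adjusted p = 0.0325). Cd209a and Ccr7 of 9 dendritic cell markers (22.2%) were higher in Balb/c, and Ear6 of 6 eosinophil markers (16.7%) was higher in C57BL6. The call of Cd8b1 was lost without any 1 of the 4 arrays. No NK cell, B cell, erythroid, mast cell or megakaryocyte marker was called, of 3, 7, 4, 8 and 6 tested.

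The same strain contrast without IL-4 and after 4 h of it gave 949 (5.44%) and 731 (4.19%) calls over these genes. These comparisons use other arrays but share the fit's estimate of spread, and the genes were those measured at 18 h. Of the 1072 genes called at 18 h, 601 (56.1%) were also called in mock cells, which is 63.3% of the mock calls, and 600 of these had the same sign. A further overlap of 610 genes was present with the 4 h calls (56.9% of the 18 h calls and 83.4% of the 4 h calls), and 512 genes were called in all 3. Some leading genes, picked here after their values were seen, also differed without IL-4. Hal differed by 10.29 in mock cells, 9.89 at 4 h and 9.76 at 18 h, Chst10 by 5.09, 4.51 and 5.49, and Rab7b by -3.89, -3.70 and -3.82. Chil3 differed by -4.81, -3.82 and -3.54. For Ptprd the difference was 3.23 in mock cells and 8.90 at 18 h, with C57BL6 below background at 18 h.

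When the difference between the strain contrasts was tested itself, no gene was called, either for 18 h against mock or for 18 h against 4 h (limma, 0%). At an unadjusted p below 0.05 there were 916 and 489 genes. A gene called at 18 h and not in mock cells is therefore not shown to respond differently to IL-4. With strain and replicate number as a random block, which allows for same-numbered samples of a strain deviating together, 17 genes were called for 18 h against mock and 1 for 18 h against 4 h. Of the genes named above these included Ifit2, whose strain difference was 0.13 in mock cells and -1.28 at 18 h, a change of -1.41 ± 0.18 (adjusted p = 0.0416 with that block and 0.68 without). Plekhg1 (-6.05 in mock cells, -4.33 at 18 h, change 1.72 ± 0.19, adjusted p = 0.026), Ank2 (2.56 and 5.21, change 2.65 ± 0.26, adjusted p = 0.0177) and Thumpd1 (-10.17 and -6.68, change 3.49 ± 0.34, adjusted p = 0.0177) were also among the 17. With the same numbers as a fixed block within each strain, chosen after seeing the data, no gene was called for either change. Ank2 was below background in C57BL6 at 18 h. In Balb/c mock cells Thumpd1 measured -7.81 and -7.82 and Plekhg1 -7.56 and -7.54, under the lowest level called well above background on any of the 12 arrays (-6.94). The changes of these 3 genes therefore rest on values under background. Thumpd1 was the 1 gene called for 18 h against 4 h (change 4.01 ± 0.34, adjusted p = 0.0384 with the random block), and it measured -7.42 and -8.41 in Balb/c at 4 h, also under that level.

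Other members showed differences at 18 h beside small ones in mock cells, without a call for the change. Edn1 differed by -0.35 in mock cells, -2.62 at 4 h and -3.67 at 18 h, Ocstamp by -0.79, -0.86 and -2.76, and Tgtp1 by -0.13, -0.24 and -1.06 (adjusted p for the change from mock 0.92, 0.72 and 0.87). Ccnb2 differed by -0.21, 0.12 and 1.01, and Ctsc by -0.06, 0.41 and 0.94 (adjusted p for the change 0.70 and 0.82).

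**Figure D5:**
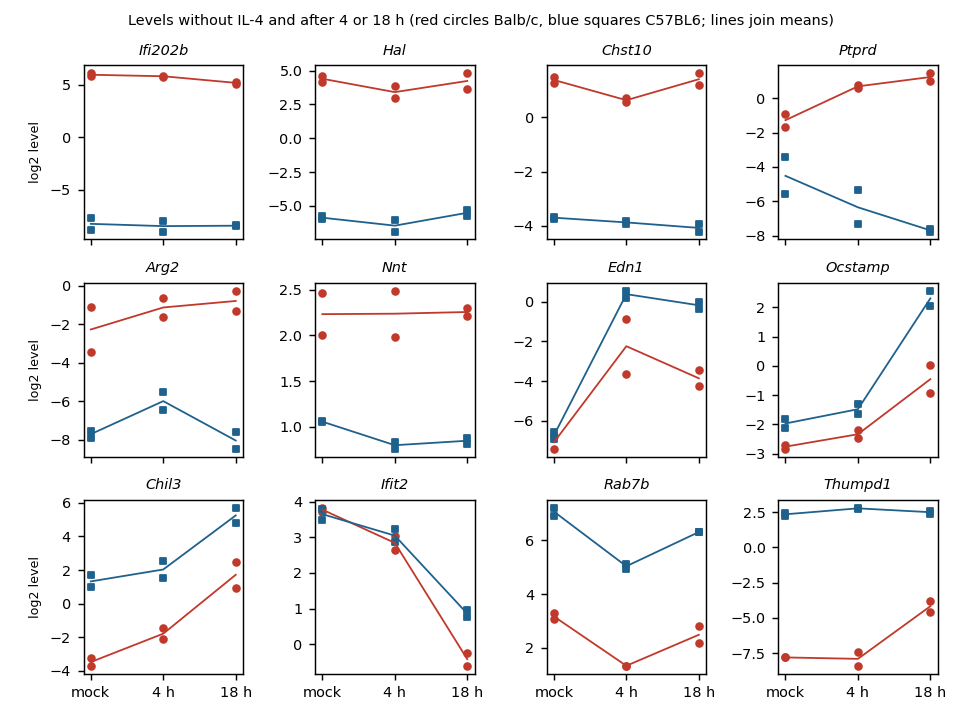
Levels (log2 signal minus the 75th percentile of the array) of 12 genes in mock cells and after 4 h or 18 h of IL-4, with 2 arrays for each point of each strain (red circles Balb/c, blue squares C57BL6) and lines joining means. Hal, Chst10 and Rab7b keep a like gap across the 3 conditions, while Ocstamp, Edn1 and Ifit2 have their widest or only called gap after IL-4.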

How the data were processed

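RNA of 12 macrophage samples was labelled with Cy3 (1 µg of RNA each) and hybridised to one-colour Agilent mouse arrays. The submitters' processing notes name Agilent Feature Extraction 9.5.1.1. The deposited scanner files give the processed green signal, the mean signal and the local background as linear intensity, per the file headers, and the authors' value table held a linear ratio for each probe, deposited with no stated denominator and used here only as an alternative. Scripts left out control and outlier-flagged spots, averaged the spots of a probe, took log2 of the processed intensity and subtracted each array's 75th percentile. Of 41174 probes, 26011 were called well above background on both 18 h arrays of at least 1 strain, and the brightest kept probe stood for each of 17441 genes. Names of kept probes came from RefSeq by accession (16899), symbol (3747) or older symbol (1775), and 3590 kept the name in the file.

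Limma 3.58.1 in R 4.3.3 fitted 6 group means over 12 arrays (residual df 6, prior df 2.16), with Benjamini-Hochberg adjustment over all genes and a threshold of 0.05. On simulated data with 17376 genes, 28%, 78%, 96% and 96% of genes with log2 differences of 1, 2, 3 and 4 were called, with 10 false calls. The simulation changed 50 genes of each size, fewer than were called in the data, and its errors were independent between arrays. The number of arrays, 2 a group, limits the precision. Same-numbered arrays of a strain deviated together (r 0.208 to 0.671 for 6 pairs of groups), while those of different strains had r of mixed sign (-0.284 to 0.166). Numbers were therefore taken to pair arrays within a strain, from these values alone, and not between the strains compared. Replicate number also went largely with slide, so pairing by number and a slide effect cannot be told apart.

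Named genes were up to 12 a direction with the largest difference among genes measured on all 4 arrays, up to 10 a direction with the largest bound among genes below background in 1 strain, up to 6 of each of 48 gene lists, called ones first, and 14 genes linked to IL-4 or to known strain differences. The members, lists and rules were chosen with earlier results of these data known. Alternatives were quantile, median and normexp (offset 50) processing, the deposited ratios, other filters and probe summaries, replicate and slide blocks, array weights, a fit of only the arrays compared, and leaving out each array. Promoters came from RefSeq GRCm38.p6. The build of the probe coordinates is not given in the sources used here, and no gene coordinates are printed. Results for 2 named genes are not reported here.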

Additional observations from a re-analysis of the deposited data

Results flagged for a closer look

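In 8 named genes the change from mock to 18 h of IL-4 had opposite signs in the strains on every array. None of these differences in change was called (limma, Benjamini-Hochberg, adjusted p 0.459 to 0.937), and with 2 arrays a group no array could be tested as an outlier. The value given is the change in Balb/c less that in C57BL6, on the log2 scale. It was 5.67 for Ptprd, whose level was below background in C57BL6 at 18 h, so that the size rests on values under that limit. It was 1.77 for Trim12a, which was below background in Balb/c, and -2.08 for Nlrp1a, likewise below background in Balb/c at 18 h. The cell cycle genes Cdc20 and Ccnb2 had values of 1.38 and 1.23. Thy1 had 1.39, Gclm 0.43 and Adamts1 -0.94.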

How the results depend on the processing

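The count of 1072 genes called between strains at 18 h became 129 with normexp background correction, 611 without a filter on dim probes, 483 with slide as a block and 1926 with array weights, and ran from 367 to 527 when 1 array was left out. Under quantile or median scaling, the deposited ratios, other filters and probe summaries, or a fit of only the 4 arrays, it stayed between 751 and 1520. Replicate numbers were not taken as pairs between strains. With the replicate block over all groups the count was 1547, and with strain by number as a random replicate block 852. The share of calls higher in Balb/c was 40.7% as reported, 58.1% with normexp, 49.8% without the filter, 52.1% on genes measured on all 4 arrays and 32.1% in the fit of only the 4 arrays. For 18 h against mock, the count of 0 became 1 with quantile normalization, 1 with only the arrays compared (Adra2a in both), 4 with slide as a block (among them Slfn1, Tcl1b5 and Thumpd1) and 17 with the random replicate block, and 0 to 3 without 1 array (without Balb/c mock replicate 1: Trim30b, Olfr374 and a transcript with no symbol). For 18 h against 4 h it became 1 with the random replicate block, 2 with slide as a block (Tcl1b5 and Thumpd1) and 0 to 5 without 1 array. The 5, without Balb/c 4 h replicate 1, were Fshr, Rnf207, Slurp1, Thumpd1 and Timp4, and the 4 without Balb/c 4 h replicate 2 included Bckdk and Gskip. Genes outside the naming rule here were chosen after their values were seen. With the number as a fixed replicate block within each strain, chosen after seeing the data, both counts were 0. Of 115 named called genes, 65 kept their call without any 1 array, 20 lost it in all 4 such fits, 36 kept it under every alternative, and none changed sign. A named gene that an alternative's filter left out was counted over the remaining alternatives only. On genes well above background on all 4 arrays, 84 of the 115 named genes were tested and kept their call. Apart from fewer samples or genes tested, the cause of these shifts was not tested.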
